A study of Mus musculus with 2 samples.

Results

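The genes studied here encode the proteins of the mitochondrial ribosome. They were chosen by name, as all protein-coding genes called Mrpl or Mrps plus a number, and numbered 78 among the 21755 protein-coding genes of the 19 autosomes and the X chromosome. Of these, 51 encode proteins of the large subunit, which holds the peptidyl transferase centre, and 26 encode proteins of the small subunit, which decodes the messenger RNA. Mrps36 belongs to neither, since its product is now known as a subunit of the 2-oxoglutarate dehydrogenase complex. Mrps18a and Mrps30 were counted with the large subunit, where their proteins are found despite their names. The genes lie on 17 chromosomes, 11 of them on chromosome 11 and 8 on chromosome 17.

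Chromatin accessibility was measured by ATAC-seq, in which the Tn5 transposase cuts open DNA, in granulocyte monocyte progenitors (GMP), the marrow precursors of neutrophils and monocytes. The mice were C57BL/6J males of 5 to 6 weeks. The series holds 1 group of 2 biological replicates with 50000 cells each, which carry the same donor label, and no treated or control group. The authors deposited lists of accessible regions with a fold enrichment for each row. The sorting of the cells and the denominator of this ratio were stated in none of the sources used here. Read depth is unknown, since the files hold no counts. The series-level list, made from both replicates, gave 75129 regions after merging, against 65406 in replicate 1 and 53670 in replicate 2. Promoters of 10 of 10 genes that mark myeloid progenitors were open in it, and of 10 genes that mark liver, muscle, lymphoid or red blood cells 0 were.

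Mitochondrial ribosomes translate the few messenger RNAs of the mitochondrial genome, all of which encode subunits of oxidative phosphorylation. Their RNA is made inside the organelle, while every protein is encoded in the nucleus, translated in the cytosol and imported. Promoters of nuclear genes for mitochondrial proteins often lack a TATA box and carry sites for NRF1 and for the ETS factor GABP, which are known as regulators of respiratory genes.

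All 78 mitochondrial ribosomal protein genes had an open promoter in the series-level list, meaning a region whose summit lay within 1000 bp of an annotated transcription start site (TSS). Among all protein-coding genes the share was 62.7%. In replicate 1, 77 of the 78 were open, against 61.4% of all genes, and in replicate 2 also 77, against 58.1%. Both replicates together held 76, against 57.5% of all genes. The exceptions were Mrpl16 and Mrps34. Mrpl16, a large subunit protein, had a fold of 6.85 in replicate 2 and no promoter region in the thresholded list of replicate 1. Its promoter was present in the looser list of replicate 1, at a fold of 8.09. Mrps34, a small subunit protein without a bacterial counterpart, had a fold of 8.61 in replicate 1 and no promoter region in the thresholded list of replicate 2, while the looser list of replicate 2 held it at 5.15. Both promoters were thus below a threshold in 1 replicate and not missing from its looser list. The 78 genes used 77 distinct regions, because Mrpl46 and Mrps11 shared 1.

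An open promoter was also found at every gene of 5 further lists for mitochondrial translation and for mitochondrial DNA. All 5 mitoribosome proteins with other names, 13 translation factors, 22 aminoacyl-tRNA synthetases, 23 assembly factors and 11 genes for transcription and upkeep of mitochondrial DNA were open, which makes 74 of 74 in the series-level list and in each replicate. Their median fold was 12.6 over the 74. The mitoribosome proteins with other names, the closest of these lists to the members, had a lower median of 9.73, and 1 of the 5 lay above the median of other open promoters (10.2). The highest values among them belonged to Dhx30 (an RNA helicase of mitoribosome assembly), at 19.69, Lars2 (the leucyl-tRNA synthetase), at 18.42, and Fastkd2 (an RNA-binding assembly factor), at 18.38. All 78 cytosolic ribosomal protein genes were open as well, and so were 76 of 77 genes for oxidative phosphorylation subunits, all but a second gene record named Atp5o.

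Promoters of the mitochondrial ribosomal protein genes had a higher fold enrichment than other open promoters. Their median was 12.4 (interquartile range 10.1 to 14.8), against 10.2 (7.96 to 12.6) at the 13572 other open promoters. The medians were 12.5 against 10.7 in replicate 1 and 11.2 against 9.28 in replicate 2. The median of the members was higher than that of other genes by 2.22 in the series-level list, by 1.80 in replicate 1 and by 1.91 in replicate 2. Of the 78 members, 57 (73.1%) lay above the median of the other open promoters, 21 lay above their 90th percentile and 7 below their 25th. Oxidative phosphorylation genes had a median of 12.4 as well, and cytosolic ribosomal protein genes 10.9. Single members ranged from 6.08 to 18.49.

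**Figure D1:**
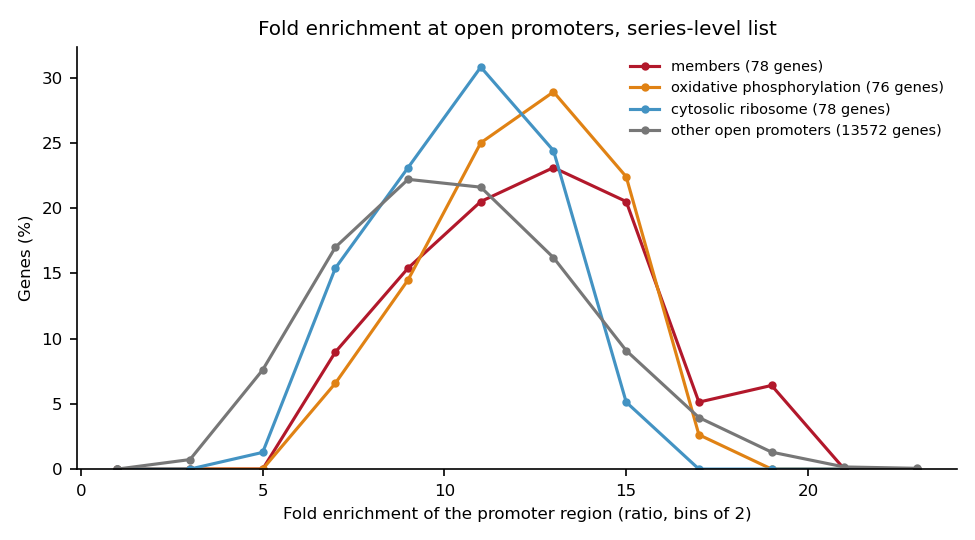
Share of genes (%) by fold enrichment of their promoter region in the series-level list, in bins of 2, for mitochondrial ribosomal protein genes (members), oxidative phosphorylation genes, cytosolic ribosomal protein genes and other open promoters. The curve of the members peaks to the right of that of the other open promoters, with medians of 12.4 against 10.2.

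The small subunit genes had a median of 13.8 and the large subunit genes one of 11.8. In replicate 1 these medians were 14.9 for the small and 12.02 for the large subunit, and in replicate 2 they were 11.8 for the small and 10.6 for the large subunit. The values of both subunits overlapped over nearly their whole range, and the difference was not tested.

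The highest promoters were those of Mrps33, Mrps27, Mrps21, Mrpl15, Mrps18a and Mrps17. Mrps33 (small subunit) had a fold of 18.73 in replicate 1 and 15.59 in replicate 2, and 18.49 in the series-level list. Mrps27, an RNA-binding pentatricopeptide repeat protein of the small subunit, had 18.91 in replicate 1 and 15.94 in replicate 2. Mrps21, the counterpart of a bacterial small subunit protein, had 19.84 in replicate 1 and 14.20 in replicate 2. Each of these promoters was far above the medians of other open promoters in both replicates. Mrpl15 of the large subunit had 17.43 in replicate 1 and 16.95 in replicate 2, the closest agreement of these 6. Mrps18a, 1 of 3 mammalian relatives of a single bacterial protein, had 19.07 in replicate 1 and 14.18 in replicate 2. Mrps17 (small subunit) had 17.54 in replicate 1 and 15.57 in replicate 2.

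The lowest promoters were those of Mrps5, Mrps34, Mrpl23, Mrpl33, Mrpl34 and Mrpl41, all between 6.08 and 7.84 in the series-level list. Mrps5, which lines the entry of the messenger RNA channel in the bacterial ribosome, had a fold of 6.67 in replicate 1 and 4.86 in replicate 2. Mrpl23, near the exit of the peptide tunnel in bacterial ribosomes, had 7.90 in replicate 1 and 6.81 in replicate 2. Mrpl33 of the large subunit had 7.45 in replicate 1 and 6.53 in replicate 2. Mrpl34, also of the large subunit, had 7.68 in replicate 1 and 7.40 in replicate 2. Mrpl41, found in no bacterial ribosome, had 8.09 in replicate 1 and 7.06 in replicate 2. These promoters were below the medians of other open promoters in each replicate whose list held them.

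Genes with known roles were spread over the whole range. Mrpl3, whose bacterial counterpart reaches towards the peptidyl transferase centre, had a fold of 15.65 in replicate 1 and 13.25 in replicate 2. Mrpl11, part of the site where translation factors bind, had 18.78 in replicate 1 and 13.14 in replicate 2. Mrpl12, the stalk protein that also binds the mitochondrial RNA polymerase, had 11.20 in replicate 1 and 7.77 in replicate 2, and so lay near the median of other genes. Mrpl44, which has a ribonuclease III fold, had 13.14 in replicate 1 and 12.42 in replicate 2. Mrpl58, a peptidyl-tRNA hydrolase that rescues stalled ribosomes, had 11.40 in replicate 1 and 8.15 in replicate 2. In the small subunit, Mrps12 of the decoding centre had 15.09 in replicate 1 and 11.36 in replicate 2. Mrps7 of the subunit head had 11.25 in replicate 1 and 8.60 in replicate 2. Mrps16 and Mrps22 are both known from inherited oxidative phosphorylation deficiency in humans. Mrps16 had 11.73 in replicate 1 and 10.05 in replicate 2, below Mrps22 with 16.48 in replicate 1 and 12.22 in replicate 2. Mrps18b and Mrps18c, the relatives of Mrps18a, had series-level folds of 8.74 and 15.97, so the 3 paralogues ranged from below the median of other genes to its upper end. Mrps30 had 14.03 in replicate 1 and 14.84 in replicate 2. Mrps36, with its role outside the ribosome, had 12.94 in replicate 1 and 11.76 in replicate 2 and did not stand apart from the rest.

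**Figure D2:**
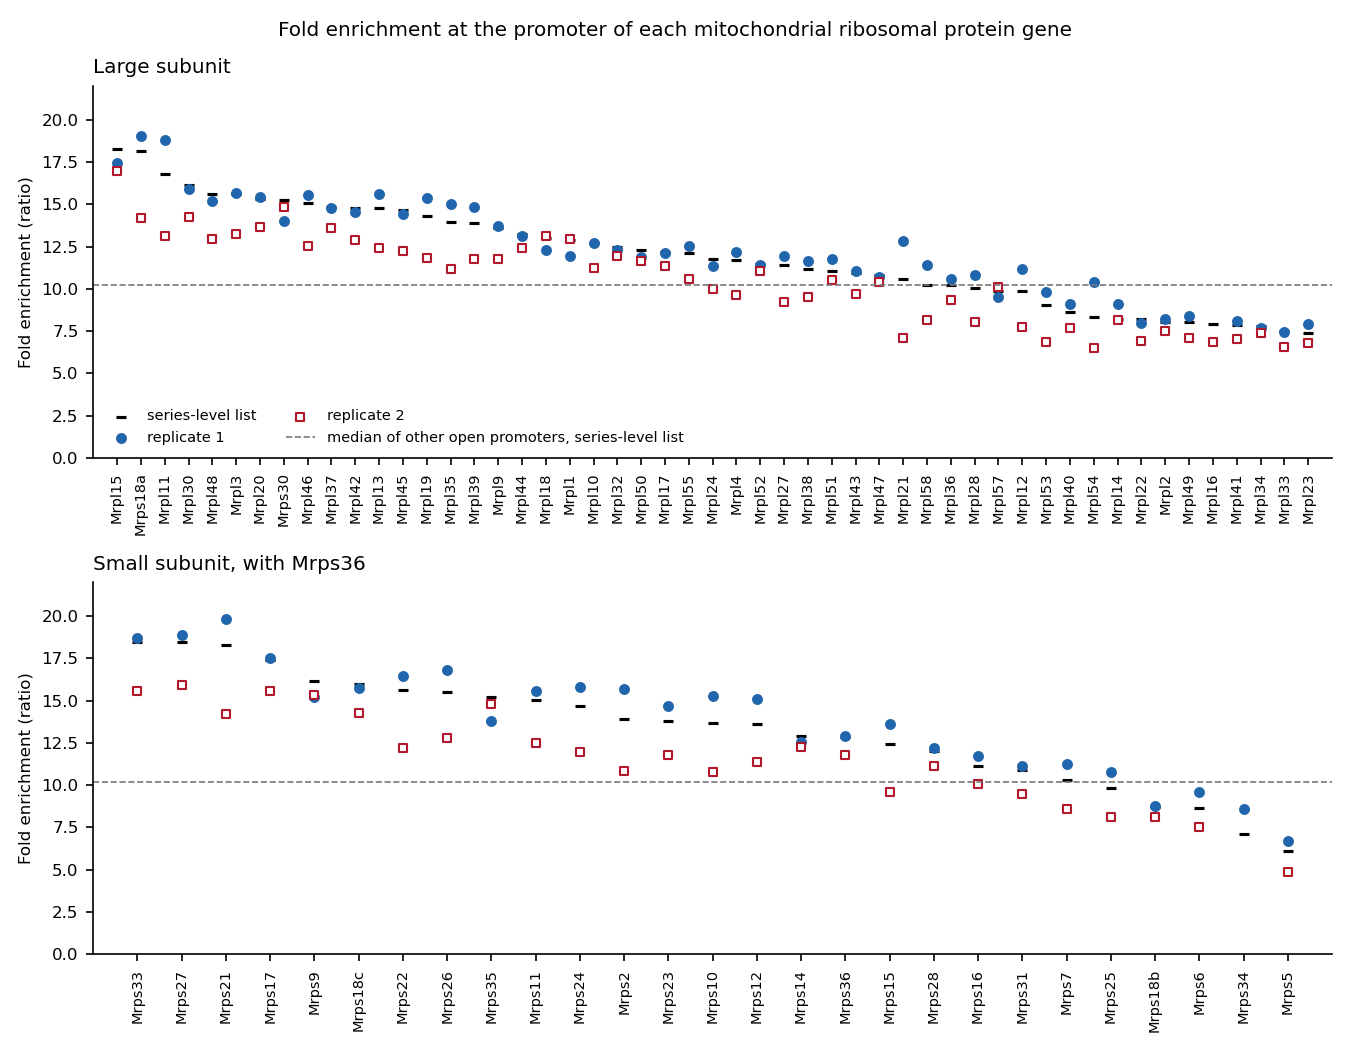
Fold enrichment (ratio) at the promoter of each of the 78 genes in the series-level list (bar), replicate 1 (filled circle) and replicate 2 (open square), ordered by the series-level value within each subunit. The dashed line is the median of other open promoters, 10.2, and 57 genes lie above it.

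The order of the promoters was similar in both replicates. Across the 76 genes open in both, the Spearman correlation of the folds was 0.86, against 0.90 across 12436 other genes; genes are not independent replicates and no p is given. The fold was higher in replicate 1 for 70 of the 76 genes (92.1%), the same share as for other genes (92.1%), so the offset between the replicates was one of the lists as a whole. Base composition differed a little from other promoters. GC content within 250 bp of the TSS nearest to the summit had a median of 60.5% at the members and 62.5% at other open promoters. Within each quartile of GC content, from low to high, the median fold of the members was 13.67, 13.14, 11.31 and 10.10, while that of other open promoters was 10.06, 10.84, 10.68 and 9.41. The members were higher in all 4 quartiles and by less in the upper ones; the highest held 8 members.

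The regions were no wider than others, with a median of 864 bp at the members and 866 bp at other open promoters. The widest were those of Mrpl41 (1618 bp), Mrps23 (1600 bp), Mrpl18 (1444 bp) and Mrpl47 (1423 bp). The narrowest were those of Mrpl33 (302 bp), Mrpl35 (528 bp), Mrps2 (549 bp) and Mrpl3 (550 bp). For Mrpl33 this is the region with the highest fold, and another near the same TSS was 489 bp wide. Mrpl41 combined the widest region with a low fold, and Mrpl3 a narrow region with a high one. Across the 78 genes, width and fold had a Spearman correlation of -0.05.

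Summits lay close to the TSS. Their median position was 16.5 bp upstream at the members and 36.0 bp upstream at other open promoters, which is -16.5 and -36.0 on the scale where negative is upstream. A summit within 100 bp of a TSS was found at 64 members (82.1%), against 63.7% of other open promoters. Cytosolic ribosomal protein genes had 92.3% and oxidative phosphorylation genes 86.8%, so the members were not the closest class. By annotation, 38 summits lay outside the gene, 31 in an untranslated exon, 4 in an intron, 4 in a noncoding exon and 1, that of Mrpl44, in coding sequence. The farthest summits were those of Mrpl33 (715 bp downstream), Mrps18b (418 bp upstream, -418), Mrps28 (391 bp downstream) and Mrpl23 (309 bp downstream). For Mrpl33 this is the region with the highest fold (7.52). Another of its regions, with a fold of 6.55, had its summit 37 bp upstream of the same TSS (-37).

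**Figure D3:**
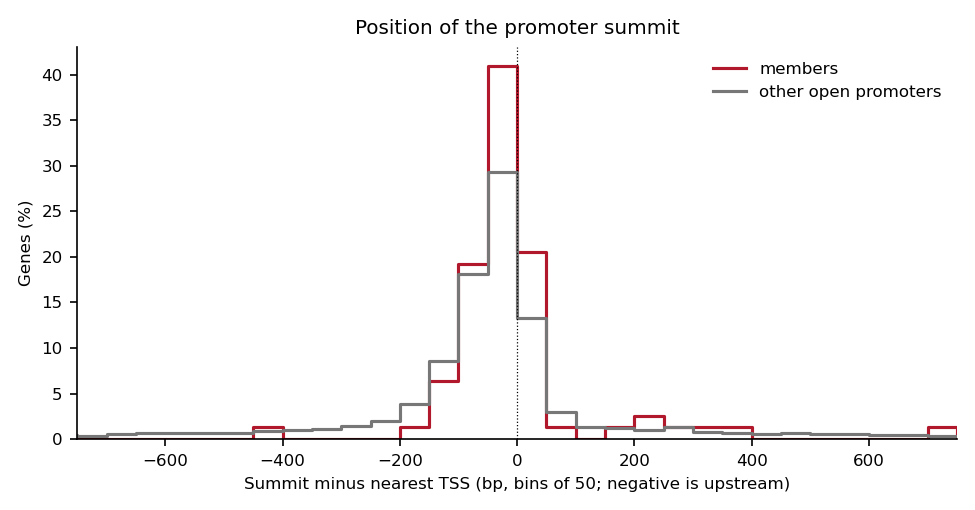
Position of the promoter summit relative to the nearest TSS (bp, bins of 50, negative upstream) as a share of genes (%), for the 78 members and for other open promoters. The members are the more concentrated at the TSS, with 82.1% against 63.7% of summits within 100 bp.

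More than 1 promoter region was found at 11 members (14.1%), against 29.4% of other open genes. The share was 13.2% at oxidative phosphorylation genes and 10.3% at cytosolic ribosomal protein genes. Mrpl14 and Mrpl33 had 4 each and Mrpl48 had 3. At Mrpl33, all 4 regions were weak, with folds of 6.13, 6.55, 7.52 and 5.43. At Mrpl48, the region with the highest fold (15.63) lay at an internal TSS, while the region at its 5′ end, shared with Rab6a, had 11.34. The other genes with several regions, Mrpl13, Mrpl20, Mrpl36, Mrpl43, Mrpl52, Mrpl55, Mrps10 and Mrps35, had 2 each.

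Head-to-head neighbours were common. A divergent partner, here a protein-coding gene on the opposite strand with its TSS 0 to 1000 bp upstream, was annotated for 29 of the 78 members (37.2%), against 11.1% of all protein-coding genes and 16.7% of those with an open promoter. With the 5′ end of the gene record as the only TSS, 18 members had one, against 6.79% of other genes. The share was 21 of 51 in the large subunit (41.2%) and 8 of 26 in the small subunit (30.8%). Oxidative phosphorylation genes had a similar share of open genes, 38.2%, and cytosolic ribosomal protein genes had 20.5%. Every annotated start site was considered, and the gap is that between the closest divergent start sites of the pair. These gaps were short, with a median of 59 bp at the members and 106 bp at other divergent genes, open or not. In 21 of the 29 (72.4%) the gap was at most 100 bp, against 49.5% of the 2250 others with an open promoter. In 27 of the 29 the same region was the highest for both genes (93.1%, against 84.9% of the others). The exceptions were Mrpl48, which had a higher region at an internal TSS, and Mrps5, whose partner Zfp661 had a higher one (fold 10.39) at another of its start sites.

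**Figure D4:**
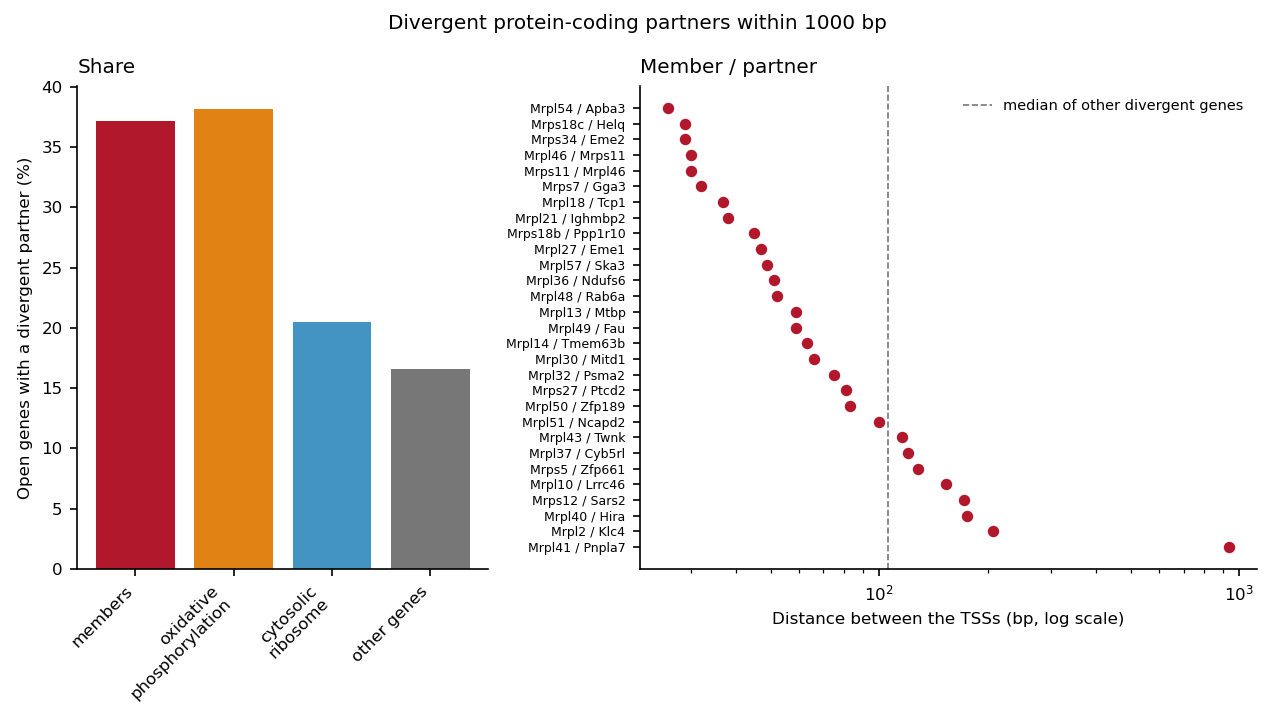
Left, share of open genes (%) with a divergent protein-coding partner among members, oxidative phosphorylation genes, cytosolic ribosomal protein genes and other genes. Right, distance between the start sites (bp, log scale) for the 29 members with a partner, with the median of other divergent genes, 106 bp, as a dashed line; 21 of the 29 lie at or below 100 bp.

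The pair Mrpl46 and Mrps11 joins a gene of the large subunit to one of the small subunit. Their closest divergent start sites are 30 bp apart, and the shared region had a fold of 15.56 in replicate 1 and 12.52 in replicate 2. The gene record of Mrpl46 reaches beyond this start site of Mrps11, so the records overlap. Gaps of 26 to 38 bp were also found between Mrpl54 and Apba3 (26 bp), Mrps18c and the DNA helicase gene Helq (29 bp), Mrps34 and the endonuclease gene Eme2 (29 bp), Mrps7 and the clathrin adaptor gene Gga3 (32 bp), Mrpl18 and the chaperonin gene Tcp1 (37 bp), and Mrpl21 and the helicase gene Ighmbp2 (38 bp). Some partners are themselves mitochondrial; they were picked out after the partners were seen. Mrpl36 faces Ndufs6, a subunit of respiratory complex I (51 bp), Mrps27 faces Ptcd2, which acts on mitochondrial RNA (81 bp), Mrpl43 faces Twnk, the helicase of mitochondrial DNA (116 bp), and Mrps12 faces Sars2, the mitochondrial seryl-tRNA synthetase (172 bp). Mrpl49 faces Fau, which encodes a cytosolic ribosomal protein (59 bp), and Mrpl32 faces Psma2, a proteasome subunit (75 bp). The longest gap, 935 bp, was that of Mrpl41 and Pnpla7.

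The stretches between the closest divergent start sites show how little DNA lies between those of some pairs. Leaving out the long interval of Mrpl41, 19 pairs had an interval without annotated exons, and 5 of these 19 held a match to the NRF1 or ETS letters spelled out below. A choice of 5 intervals is shown, to give pairs with and without matches, so the matches are more frequent here than over the 19. The bases are from GRCm38.p6 (mm10, RefSeq sequence), read towards the gene named first, with those matches in capitals. They lie at chr7:78783090-78783118 (minus strand) for Mrpl46, chr5:100798599-100798626 (plus strand) for Mrps18c, chr19:6057786-6057843 (minus strand) for Mrpl49, chr13:99344706-99344785 (plus strand) for Mrps27 and chr19:45006443-45006557 (minus strand) for Mrpl43.
Mrpl46/Mrps11: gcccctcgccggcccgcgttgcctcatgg
Mrps18c/Helq: gtgaCTTCCGGcccgggaagcgcgggaa
Mrpl49/Fau: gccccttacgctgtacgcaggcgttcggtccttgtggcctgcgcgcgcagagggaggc
Mrps27/Ptcd2: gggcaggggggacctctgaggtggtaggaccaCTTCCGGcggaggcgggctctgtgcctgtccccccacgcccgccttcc
Mrpl43/Twnk: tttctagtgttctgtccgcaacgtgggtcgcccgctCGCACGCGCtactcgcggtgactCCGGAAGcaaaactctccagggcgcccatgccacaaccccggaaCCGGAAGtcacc
The first and the third hold no such match, the second and the fourth hold 1 ETS match each on the opposite strand, and the last holds 1 NRF1 match and 2 ETS matches.

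Members with a divergent partner had a lower median fold than those without, 11.1 against 12.9. At other open promoters the order was the opposite, 10.8 against 10.1. Neither difference was tested. Their regions differed in width as well, with a median of 921 bp at divergent members and 816 bp at the rest, as at other open promoters (1004 bp and 834 bp).

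Short consensus letters of 16 transcription factor motifs or core elements were searched on both strands within 100 bp of each promoter summit. A match is a description of these letters and not a binding site, and the lack of a match says nothing about the factor. The ETS letters CCGGAAG (the form bound by GABP) were found at 29 members (37.2%), against 15.8% of all open promoters and 15.6% of other open promoters. The YY1 letters ANATGGCG were found at 17 members (21.8%), against 5.83% of all and 5.74% of other open promoters. At 12 of these 17 they lay over an annotated start codon, as set out below, and these count in the combined shares too. The NRF1 letters CGCANGCGC were found at 15 members (19.2%), against 9.48% of all and 9.42% of other open promoters. At least 1 of these 3 was present at 47 members (60.3%), against 27.2% of other open promoters, and at least 2 at 14 members (17.9%), against 3.48%. A full match to one of these cannot be a full match to another on the same bases.

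At least 1 of the 3 was present at 60.5% of oxidative phosphorylation genes and at 55.1% of cytosolic ribosomal protein genes, shares near that of the members. At least 2 were present at 11.8% of oxidative phosphorylation genes and at 6.41% of cytosolic ribosomal protein genes, below the 17.9% of the members. YY1 letters were found at 22.4% of oxidative phosphorylation genes and at 11.5% of cytosolic ribosomal protein genes. For ETS letters these shares were 25% and 37.2%, the latter equal to that of the members. For NRF1 letters they were 25% and 14.1%, the former above the 19.2% of the members. No single motif was thus particular to the members. The higher shares did not rest on the divergent members alone. Among the 49 members without a partner, ETS letters were found at 40.8%, YY1 letters at 18.4% and NRF1 letters at 18.4%, against 13.7%, 5.11% and 8.76% of other open promoters without one.

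For the other 13 motifs the share differed from that of other open promoters by fewer percentage points, and many were found at 3 members or fewer. The PU.1 letters AGAGGAAGT, which share bases with the ETS letters, were found at 0 members, against 1.58% of all open promoters, and the CEBP letters TTGCGCAA at 0, against 0.381%. The ERR letters TCAAGGTCA were also found at 0, against 0.147%. With background shares this low, 0 among 78 genes does not set the members apart for the PU.1, CEBP or ERR letters. The RUNX letters TGTGGTTT were found at 2 members (2.56%), against 1.04%, and the GATA letters AGATAAG at 2 (2.56%), against 0.784%. Both shares lie above the background but rest on 2 genes each. The E-box CACGTG was found at 2 members (2.56%), against 7.41% of all open promoters, and the TATA letters TATAAA at 1 (1.28%), against 2.62%. The NF-Y letters CCAAT were found at 23 members (29.5%), against 32.3%, and the KLF/SP letters GGGGCGGGG at 10 (12.8%), against 16.7%. The CRE letters TGACGTCA were found at 2 (2.56%), against 3.05%, and their first part TGACGT, which every CRE match also holds, at 8 (10.3%), against 10.3%. The ZNF143 letters ACANTTCCC were found at 3 (3.85%), against 2.80%, and the E2F letters TTTCCCGC at 2 (2.56%), against 1.41%.

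**Figure D5:**
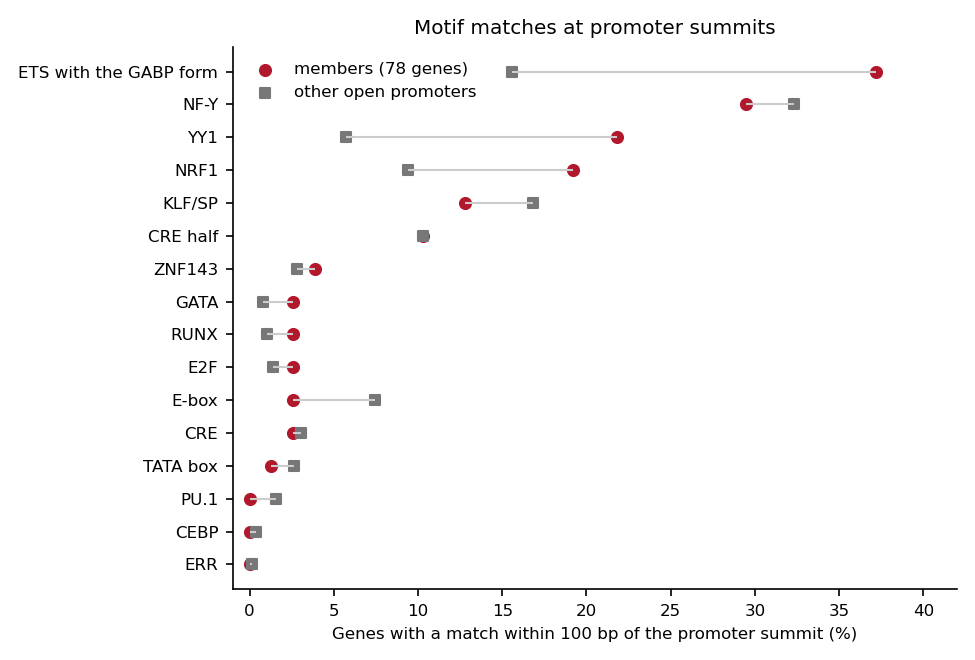
Share of genes (%) with a match to each of 16 motifs within 100 bp of the promoter summit, for the 78 members (circles) and other open promoters (squares). ETS, YY1 and NRF1 show the widest gaps in favour of the members, 37.2% against 15.6%, 21.8% against 5.74% and 19.2% against 9.42%.

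Promoters of members without a partner show the arrangement of ETS and NRF1 letters. The 120 bases before the TSS are given for 3 genes (GRCm38.p6, RefSeq sequence), again without annotated exons and with those matches in capitals, at chr11:58171541-58171660 (plus strand) for Mrpl22, chr11:97315596-97315715 (plus strand) for Mrpl45 and chr17:46110866-46110985 (plus strand) for Mrps18a.
Mrpl22: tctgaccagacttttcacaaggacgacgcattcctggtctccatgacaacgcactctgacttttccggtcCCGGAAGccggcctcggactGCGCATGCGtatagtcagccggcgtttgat
Mrpl45: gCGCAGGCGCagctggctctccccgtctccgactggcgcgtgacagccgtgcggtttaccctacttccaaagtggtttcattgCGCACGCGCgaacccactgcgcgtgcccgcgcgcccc
Mrps18a: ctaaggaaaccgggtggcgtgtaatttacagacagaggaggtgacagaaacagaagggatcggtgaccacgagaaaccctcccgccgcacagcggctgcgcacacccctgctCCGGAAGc
Mrpl22 holds 1 match of each kind, Mrpl45 holds 2 NRF1 matches, and Mrps18a has its ETS match next to the TSS. Mrpl22 had a fold of only 8.19 in the series-level list, so the letters did not go with a high fold there. By fold, the highest members with ETS letters were Mrps33 (18.49), Mrps27 (18.45), Mrps21 (18.32), Mrps18a (18.16), Mrpl30 (16.15), Mrps22 (15.62), Mrpl3 (15.60) and Mrps26 (15.54). Across the members, the median fold was 12.9 with and 12.4 without ETS letters, and 12.5 with and 12.4 without NRF1 letters. At other open promoters it was 11.52 with and 9.97 without ETS letters, and 10.68 with and 10.17 without NRF1 letters.

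The YY1 letters lay mostly around the start of the coding sequence. In the window from 250 bp before to 50 bp after the TSS, their median position at the members was 19.5 bp downstream of it. ETS letters at the members lay at a median of -29.5 bp and NRF1 letters at -33.0 bp. At other open promoters the medians were -3.5 bp for YY1, -34.5 bp for ETS and -56.0 bp for NRF1 letters. Matches farther downstream, such as the YY1 letters of Mrpl45 at 159.5 bp, fall outside this window. Of the 17 members with YY1 letters near the summit, 12 (70.6%) had them over an annotated start codon, against 234 of 779 other open promoters with these letters (30.0%). The letters ATGGCG are a start codon followed by an alanine codon, so a match there also spells the first codons. An annotated start codon lay within 100 bp of the summit at 35 of the 78 members, but at only 1770 of the 13572 other open promoters. Among these genes, the YY1 letters lay over one in 12 of 35 members (34.3%) and in 234 of 1770 others (13.2%). Over the whole lists, matches over a start codon were found at 15.4% of members and 1.72% of others. The full YY1 shares were 21.8% and 5.74%, so much of the difference lay in start codon sequence. The YY1 letters were on the strand of the gene in 14 of the 17 members (82.4%), against 64.8% of the 779 others. A match counted over a start codon is always on that strand, so this share is not a separate trait. The 17 members had a median fold of 14.7, against 12 for the other members. At other open promoters these medians were 11.2 with and 10.2 without the letters.

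Short windows around the start codon show the shared letters. The 28 bases around the match, in capitals, are given on the strand of the gene for 6 of the 12, from the large and the small subunit (GRCm38.p6, RefSeq sequence), at chr5:96210151-96210178 (plus strand) for Mrpl1, chr6:81965912-81965939 (minus strand) for Mrpl19, chr7:78783013-78783040 (minus strand) for Mrpl46, chr17:46111006-46111033 (plus strand) for Mrps18a, chr13:99344791-99344818 (plus strand) for Mrps27 and chr17:47368895-47368922 (plus strand) for Mrps10.
Mrpl1: ggaacagtcaACATGGCGgcggccgtaa
Mrpl19: gagggtgtagACATGGCGgcctccatgg
Mrpl46: gaagacagaaAGATGGCGgcgcccgtag
Mrps18a: gtgcgttccaAGATGGCGgccctcaggg
Mrps27: gtgcgctccaAGATGGCGgctcccatgg
Mrps10: cagggcaccaAGATGGCGgcgcgcgcag
The match of Mrpl46 also lies within 100 bp of the summit of Mrps11, since both genes use 1 region, so that 1 site counts for 2 of the 17 members. By fold, the highest members with YY1 letters were Mrps27 (18.45), Mrps18a (18.16), Mrps30 (15.24), Mrpl46 and Mrps11 (15.05), Mrpl37 (14.84), Mrpl42 (14.80) and Mrps24 (14.69).

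Distal regions, those with a summit over 1000 bp from every protein-coding TSS, were fewer per gene on average than at other protein-coding genes. Each was given to the gene whose TSS was nearest. At least 1 was found at 40 members (51.3%), against 59.9% of all genes, and the median was 1 per gene in both. In each replicate alone, and in the thresholded series-level list, the median was 0 at the members and 1 at other genes. The mean was 1.33 at the members and 2.66 at other genes. Oxidative phosphorylation genes had fewer still, with a mean of 1.13 and a median of 0. Cytosolic ribosomal protein genes had a mean of 2.10 and a median of 1. The genome nearest to each gene was smaller too, with a median territory of 19.5 kb at the members and 44.6 kb at other genes. Per 100 kb of territory there were 3.30 distal regions at the members and 2.19 at other genes. This density was 3.725 at cytosolic ribosomal protein genes and 1.408 at oxidative phosphorylation genes. Mrps10, a small subunit gene with a territory of 190.7 kb, had the most, 12. Mrpl15, Mrps6 and Mrps30 had 5 each, and Mrpl1, Mrpl30, Mrpl39, Mrps31 and Mrps33 tied at 4. A nearest TSS does not show which gene a region acts on.

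Of the 104 distal regions, 65 overlapped a region in both replicates and 15 in neither. The same shares were not computed over all distal regions, so these counts do not set the members apart. Their median fold was 8.52, against 7.93 for all distal regions. The strongest lay 80.2 kb upstream of Mrpl3, at chr9:104972767-104973199 in mm10, with a fold of 22.77, and in an intron of Mrps27, 7.8 kb downstream of its TSS at chr13:99353001-99353688, with a fold of 22.07. Both were present in each replicate and were higher than any member promoter.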

How the data were processed

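Per the labels, ATAC-seq was run on 2 biological replicates of mouse GMP; the coordinates are mm10. The authors deposited peak lists with a fold enrichment (ratio) for each row, which was used only to describe and rank regions within a list. None of the sources used here names the aligner, the peak caller or a shift of read ends. The series-level conservative list rests on the reads of both replicates, and each replicate has its own list. Rows sharing at least 1 bp were joined, and the region took the fold and summit of its highest row. Genes and start sites were those of GENCODE vM21. A gene with several promoter regions was given the one with the highest fold. Depth is unknown, so no interval was computed.

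The members, gene lists and motifs were chosen with earlier results of these data known. No test over genes was made; counts and medians are set beside those of other genes. Named genes were the 6 highest and 6 lowest by fold, the 4 widest and 4 narrowest, those missing from a replicate, the 8 shortest gaps, the 6 with most distal regions (9 with ties), the 4 farthest summits, those with several regions and a list by role. Alternatives were other lists, windows, start sites, merging and each replicate alone. Steps were tested on simulated data. Python 3.11.15, pandas 2.3.3, numpy 2.4.6 and samtools 1.23.1 were used.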

Additional observations from a re-analysis of the deposited data

How the results depend on the processing

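The promoters of all 78 members were open in the looser and the thresholded series-level lists and with windows of 500 and 2500 bp. The shares of other genes were 70.25% in the looser and 62.7% in the thresholded list. With windows of 500 and 2500 bp they were 59.36% and 66.85%. Only 69 were open among regions at or above the median fold of 8.09, against 46.2% of other genes. With the 5′ end of the gene record as the only TSS, 76 were open (Mrpl35 and Mrps24 were lost), against 57.19% of other genes. The median fold of the members was above that of other genes under all 11 alternatives tried, ranging from 11.19 (replicate 2 alone, other genes 9.28) to 12.89. Leaving out a replicate gave 11.19 to 12.51 for the median fold, 787 to 835 bp for the width and -21 to -18 bp for the summit position, and a median of 0 distal regions per member in either case. In each replicate alone the members' regions were slightly wider than others, at 835 against 804 bp in replicate 1 and 787 against 772 bp in replicate 2. The summit position was -1 bp with the gene record as TSS and -11.5 bp with protein-coding transcripts only, an alternative chosen after seeing the data. The median number of distal regions was also 0 in the thresholded list and with a limit of 2500 bp, where other genes had 1. Among regions at or above the median fold it was 0 at the members and 0 at other genes. In the looser list it was 1 at the members and 2 at other genes. With all regions within 50000 bp it was 4, and other genes had 4 as well. With the gene record as TSS, 18 members had a divergent partner, against 6.79% of other genes. Within 50 bp of the summit, NRF1 letters were found at 7 members, ETS letters at 19 and YY1 letters at 9, against 4.81%, 10.1% and 2.36% of other open promoters; the narrower window holds fewer bases. No paired analysis was possible because the series holds 1 group. Unknown depth limits any statement on a promoter that is missing from a list.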
